A study of Mus musculus with 9 samples.

Results

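The comparison described here sets 3 Th17 cultures labelled SRG3 cKO directly against 3 labelled RORγt KO, which are 6 of the 9 GeneChip arrays of the series. The other 3 arrays hold WT cultures, which entered the estimate of the spread and are given beside the results as a reference level. All cultures began with naive CD4 T cells from mouse spleen, sorted as CD25-, CD44 low and CD62L high. The cells were kept for 60 h on plate-bound anti-CD3 and anti-CD28 (10 µg/ml each) with TGF-β1 (1 ng/ml), IL-6 (30 µg/ml as the labels write it), anti-IL-4 and anti-IFN-γ (2 µg/ml each). The labels give the genotypes by these names only. The deleted alleles, the Cre that makes the SRG3 knockout conditional, the age of the mice and whether RORγt was lost throughout the animal are not given in the sources used here. The arrays of a genotype are called biological replicates, and nothing says that they came from separate mice, so a p-value here reflects only how far these arrays vary, which may be technical. For each of 22180 genes, the probe set with 1 gene symbol and the highest mean over the 9 arrays was used. All values are deposited log2 probe set intensities, on which a difference of 1 is a doubling, and the deposited values have a lower quartile of 6.12, a median of 7.13 and an upper quartile of 8.23.

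Th17 cells are the CD4 T helper cells that secrete IL-17 and guard mucosal surfaces against bacteria and fungi, and they drive inflammation in several autoimmune models. TGF-β with IL-6 acts through STAT3 to induce RORγt, a nuclear receptor that binds short DNA elements and switches on the IL-17 cytokines and the IL-23 receptor. SRG3, the mouse BAF155 protein encoded by Smarcc1, is a core scaffold of the Swi/Snf complex, which uses ATP to move nucleosomes and so opens DNA to factors such as RORγt. The comparison asks which genes differ between cultures labelled as knockouts of this scaffold and of the lineage's own transcription factor. Both were grown in the same polarizing conditions.

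The SRG3 cKO labels were checked first with the targeted gene. Smarcc1 measured 8.47, 8.79 and 8.62 in the SRG3 cKO arrays, 10.12, 10.04 and 10.19 in the RORγt KO arrays and 10.13, 10.32 and 10.39 in WT. The SRG3 cKO arrays were thus the 3 lowest, and the RORγt KO arrays stood beside WT. The difference was -1.49 ± 0.09 (SE, limma, adjusted p = 0.000164), a 2.81-fold lower level, and transcript remained measurable. A probe set summarizes probes along a transcript, so this value does not show how much intact message was left. The gene targeted in the RORγt KO cultures was not analysed here, and those labels were therefore not checked by it. The T cell genes Cd3d, Cd3e, Cd3g, Cd4 and Thy1 differed by 0.05, 0.00, 0.12, 0.06 and 0.14 between the genotypes, and none of these 5 passed the test.

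In all, 283 of 22180 genes were called, meaning an adjusted p under 0.05 in limma with Benjamini-Hochberg adjustment over all genes, which is 1.28% of the genes tested. SRG3 cKO was higher for 132 genes (0.595%) and RORγt KO for 151 (0.681%). At an unadjusted p under 0.05 there were 2455 genes. Most called differences were modest, with a median size of 0.40 against 0.05 for all genes, and a median SE of 0.06. A difference of at least 2-fold was reached by 10 called genes higher in SRG3 cKO and 9 higher in RORγt KO, and of at least 1.5-fold by 28 and 51. In all 283 called genes the 3 values of a genotype lay beyond all 3 of the other, which was also the case for 3239 genes, or 14.6%, of those tested (7.79% with SRG3 cKO above and 6.82% with it below). The median difference over all genes was -0.00. The first principal component of the 6 arrays held 38.9% of the variance and placed the SRG3 cKO arrays at 8.27, 8.47 and 7.91 and the RORγt KO arrays at -8.27, -10.5 and -5.85. The count of called genes rests on all 6 arrays. It was 153, 146 and 150 without SRG3 cKO array 1, 2 or 3, and 138, 157 and 192 without RORγt KO array 1, 2 or 3. Without WT array 1, 2 or 3 it was 261, 215 and 242. Of the 283 genes, 102 passed whichever of the 9 arrays was left out, and 134 passed in a fit of the 6 arrays alone.

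**Figure D1:**
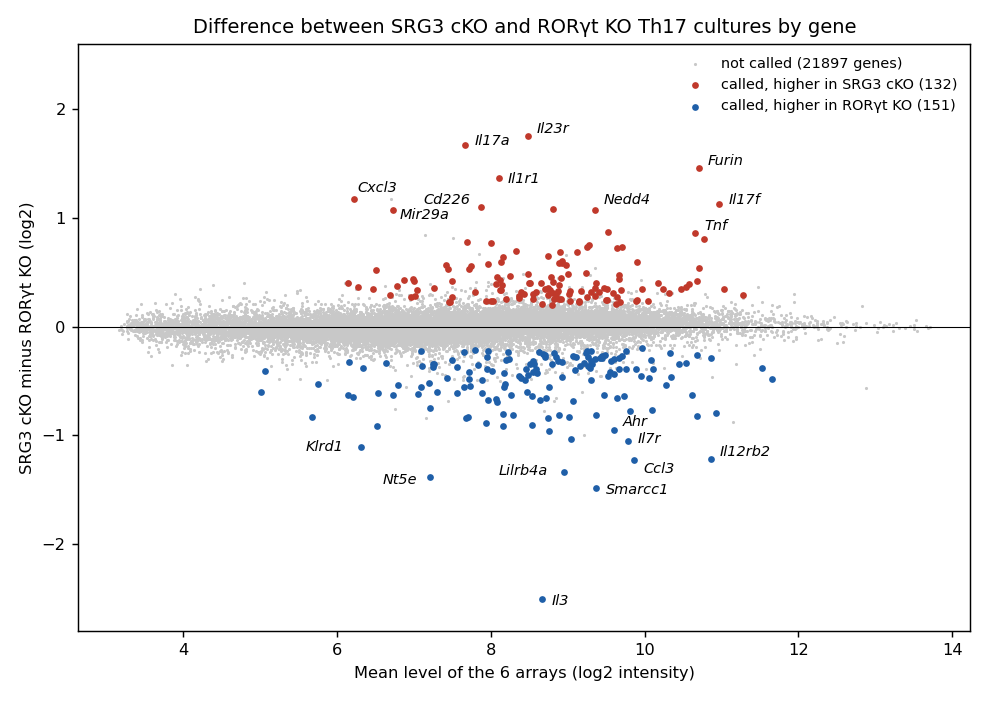
The vertical axis is the log2 difference of SRG3 cKO minus RORγt KO and the horizontal axis the mean level of the 6 arrays for each of 22180 genes. Red points are the 132 genes called higher in SRG3 cKO and blue points the 151 called higher in RORγt KO. Il3 lies farthest from 0 at -2.51 and Il23r is the highest at 1.75.

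The genes with the largest excess in SRG3 cKO were those of the Th17 effector program. Among 21 measured Th17 cytokine and effector genes, 7 were higher in SRG3 cKO, 1 was higher in RORγt KO and 13 did not pass. Over all genes, 0.595% were called higher in SRG3 cKO and 0.681% in RORγt KO, and the counts of the later lists stand beside the same shares. Members lay on both sides of 0, with a median difference of 0.00 beside -0.00 for all genes and a median size of 0.27 beside 0.05. The mean level of the list was 7.96 to 8.05 in the SRG3 cKO arrays and 7.58 to 7.70 in the RORγt KO arrays. The 7 were Il23r, Il17a, Furin, Il1r1, Cxcl3, Il17f and Ccr6. The 13 that did not pass included Il22 (0.00), Il21 (0.22), Csf2 (-0.00) and Ccl20 (-0.11). Il22 had means of 3.20 in SRG3 cKO and 3.19 in RORγt KO, far below the lower quartile of 6.12, so its 0.00 says little about expression.

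Il23r encodes the receptor subunit through which IL-23 sustains Th17 cells. Its level was 9.29, 9.22 and 9.56 in SRG3 cKO, 7.63, 7.95 and 7.25 in RORγt KO and 10.26, 10.21 and 10.24 in WT. The 3 genotypes formed 3 separate steps, with WT highest and RORγt KO lowest. The difference between the knockouts was 1.75 ± 0.15 (SE, limma, adjusted p = 0.000679), a 3.36-fold higher level in SRG3 cKO. The same fit gave SRG3 cKO minus WT as -0.88 (adjusted p = 0.0451) and RORγt KO minus WT as -2.63 (adjusted p = 0.000143), both against the same WT arrays.

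Il17a encodes the signature cytokine IL-17A. It measured 8.53, 8.30 and 8.66 in SRG3 cKO, 7.04, 6.74 and 6.72 in RORγt KO and 11.14, 10.09 and 10.83 in WT. Every SRG3 cKO array lay above every RORγt KO array, and both lay well below WT. The difference was 1.67 ± 0.22 (SE, adjusted p = 0.00736), or 3.17-fold. Its genomic neighbour Il17f, whose protein pairs with IL-17A in a heterodimer, measured 11.53, 11.46 and 11.61 against 10.49, 10.48 and 10.25, with WT at 12.38, 12.05 and 12.68. Il17f took the same order of genotypes, with a difference of 1.12 ± 0.14 (SE, adjusted p = 0.0044), or 2.18-fold.

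Furin and Il1r1 followed another order, in which SRG3 cKO stood at the WT level. Furin, a protease that cleaves pro-TGF-β and other precursors, measured 11.55, 11.40 and 11.34 in SRG3 cKO, 9.98, 10.05 and 9.89 in RORγt KO and 11.50, 11.25 and 11.24 in WT. Its difference was 1.46 ± 0.08 (SE, adjusted p = 0.000118), or 2.75-fold, while SRG3 cKO minus WT was 0.10 (adjusted p = 0.705). Il1r1, the signalling receptor for IL-1, measured 8.61, 8.99 and 8.76 against 7.37, 7.48 and 7.41, with WT at 8.74, 8.91 and 8.79. The SRG3 cKO and WT arrays overlapped, and all 3 RORγt KO arrays were lower by over 1 unit. The difference between the knockouts was 1.37 ± 0.09 (SE, adjusted p = 0.000165), or 2.58-fold.

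Cxcl3, a chemokine that draws neutrophils, measured 6.71, 7.05 and 6.66 in SRG3 cKO and 5.52, 6.03 and 5.34 in RORγt KO, with WT at 6.56, 6.49 and 6.58. These levels lie below the median of all values, and the groups did not overlap. The difference was 1.18 ± 0.16 (SE, adjusted p = 0.00763), or 2.26-fold, and it missed the threshold in the fit of the 6 arrays alone (adjusted p = 0.0598). Ccr6, the CCL20 receptor that guides Th17 cells to mucosa, was 0.65 ± 0.06 higher in SRG3 cKO (SE, adjusted p = 0.000772). Lgals3, which encodes galectin-3, was the called list member higher in RORγt KO, at -0.67 (adjusted p = 0.000679). Il10, the anti-inflammatory cytokine, had a difference of -0.76, with SRG3 cKO at 6.54, 6.21 and 6.36 and RORγt KO at 7.39, 6.83 and 7.17, and did not pass (adjusted p = 0.0687).

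**Figure D2:**
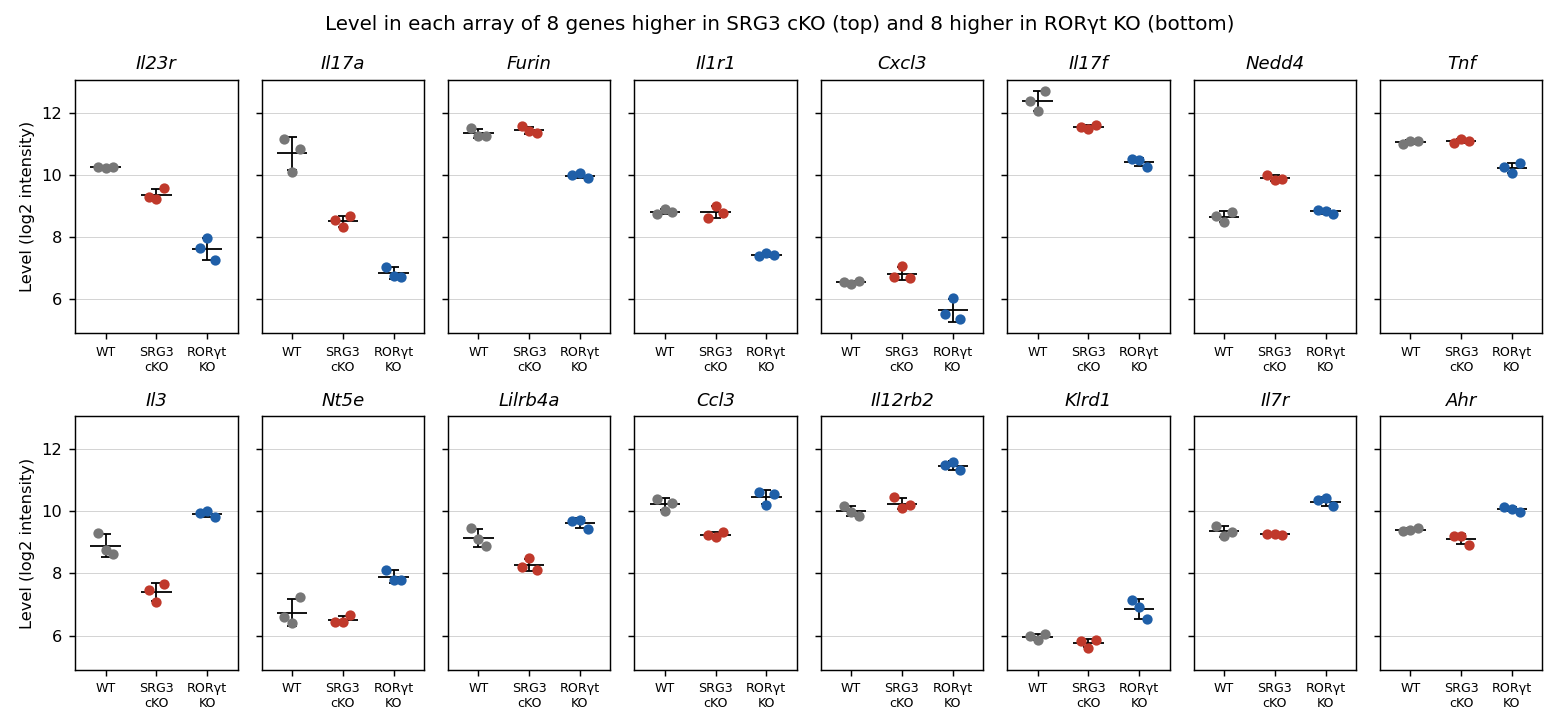
Each panel gives the log2 intensity of a gene in the 3 WT (grey), 3 SRG3 cKO (red) and 3 RORγt KO (blue) arrays, with a bar at the mean and whiskers of 1 SD. In the top row the RORγt KO arrays lie below the SRG3 cKO arrays, and in the bottom row above them. For Furin, Il1r1 and Tnf the red points sit beside the grey ones, while for Il12rb2, Il7r and Nt5e the red and grey points lie together below the blue.

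RORγt binds DNA elements that hold the core TAGGTCA, so the promoters of the called genes were searched for it on both strands, together with the AP-1 element TGAGTCA and the kappa B element bound by NF-kB. The ROR core and the AP-1 element end in the same letters but differ before them, so they cannot match the same stretch on a strand. The windows were those of RefSeq (mouse GRCm38.p6), from 250 bases before to 50 bases after a start site. TAGGTCA was present in 2.33% of the 20520 windows of genes tested and 2.61% of all 32851 windows. It was present in 5 of 138 windows (3.62%) of genes called higher in SRG3 cKO and in 2 of 137 (1.46%) of those called higher in RORγt KO. TGAGTCA was present in 4.76% of the windows of genes tested and 5.2% of all windows, and in 9 (6.52%) and 15 (10.9%) of the same sets. The kappa B element was present in 0.171% of the windows of genes tested, 0.155% of all windows and 0 of either set. The windows of Il23r, Ccr6 and Ccl3 are printed, which are 3 of the genes described here that hold the ROR core. Arntl, a clock gene described further on and higher in SRG3 cKO, also holds it, at 30 bases after a start site, and is not printed. Another window of Ccr6, chr17:8242276-8242575, has no match, and neither do the windows of Il17a, Il17f, Furin, Il1r1 and Cxcl3. Il23r and Ccr6 were higher in SRG3 cKO and Ccl3 higher in RORγt KO. Capitals mark TAGGTCA or, read on the other strand, TGACCTA, and each window is printed 5′ to 3′ along its gene's strand. That of Il23r is chr6:67491806-67492105 on the minus strand, with the motif starting at -67 from the start site. That of Ccr6 is chr17:8235793-8236092 on the plus strand, with the motif at -44 on the opposite strand. That of Ccl3 is chr11:83649329-83649628 on the minus strand, with the motif at -187. A match describes the letters of the window and not binding.
Il23r: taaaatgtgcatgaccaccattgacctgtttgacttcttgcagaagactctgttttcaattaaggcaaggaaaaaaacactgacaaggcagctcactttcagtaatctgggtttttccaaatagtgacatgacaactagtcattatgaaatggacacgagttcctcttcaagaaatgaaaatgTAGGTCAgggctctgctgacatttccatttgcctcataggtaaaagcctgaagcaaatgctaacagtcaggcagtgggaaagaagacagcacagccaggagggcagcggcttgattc
Ccr6: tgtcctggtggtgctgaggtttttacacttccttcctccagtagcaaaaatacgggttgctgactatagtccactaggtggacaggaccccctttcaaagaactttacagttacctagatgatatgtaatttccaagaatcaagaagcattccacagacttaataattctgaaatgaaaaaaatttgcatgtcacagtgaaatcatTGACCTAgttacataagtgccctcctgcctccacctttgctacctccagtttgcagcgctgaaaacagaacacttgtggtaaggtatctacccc
Ccl3: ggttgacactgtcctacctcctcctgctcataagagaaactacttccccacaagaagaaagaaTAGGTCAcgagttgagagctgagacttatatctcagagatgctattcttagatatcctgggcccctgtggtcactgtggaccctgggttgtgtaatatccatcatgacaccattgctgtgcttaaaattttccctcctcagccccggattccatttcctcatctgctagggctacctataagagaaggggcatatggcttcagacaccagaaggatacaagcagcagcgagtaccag

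Other inflammatory cytokine genes split into opposite directions. Of 19 measured T helper cytokine genes outside the Th17 list, 4 were higher in SRG3 cKO (Tnf, Il2, Lta and Lif), 1 was higher in RORγt KO (Il3) and 14 did not pass, with a median of -0.01. Il3, a growth factor for haematopoietic progenitors and mast cells, showed the largest difference of any gene tested. It measured 7.47, 7.09 and 7.67 in SRG3 cKO, 9.96, 10.00 and 9.80 in RORγt KO and 9.31, 8.75 and 8.63 in WT. The SRG3 cKO arrays were below all WT arrays and the RORγt KO arrays above them. The difference between the knockouts was -2.51 ± 0.18 (SE, adjusted p = 0.000352), a 5.7-fold higher level in RORγt KO.

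Tnf and Lta lie next to each other in the genome and encode the inflammatory cytokines TNF and lymphotoxin alpha. Tnf was 0.86 ± 0.08 higher in SRG3 cKO (SE, adjusted p = 0.000772) and Lta 0.72 ± 0.09 higher (SE, adjusted p = 0.00392). For Tnf, SRG3 cKO stood 0.04 from WT (adjusted p = 0.898) and RORγt KO at -0.82 (adjusted p = 0.00135). Il2, the T cell growth factor, had a difference of 0.81 (adjusted p = 0.0336), and Lif of 0.54 (adjusted p = 0.042). Both rest on most of the arrays. Il2 passed in 3 of the 9 fits without 1 array, with an adjusted p of up to 0.126 without SRG3 cKO array 1, and Lif passed in 1 of 9, with an adjusted p of up to 0.148. Ifng measured 0.02, Il4 -0.03 and Tgfb1 -0.04 between the knockouts, and these did not pass.

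Among 15 chemokine genes, 1 was higher in SRG3 cKO (Cxcl3) and 3 were higher in RORγt KO, with a median of -0.05. Ccl3, which encodes MIP-1α, measured 9.24, 9.16 and 9.33 in SRG3 cKO, 10.63, 10.22 and 10.57 in RORγt KO and 10.41, 10.01 and 10.28 in WT. The SRG3 cKO arrays were the lowest, and RORγt KO and WT overlapped. The difference was -1.23 ± 0.12 (SE, adjusted p = 0.00128), or 2.35-fold. The neighbouring gene Ccl4 (MIP-1β) had a difference of -0.63 (adjusted p = 0.0165), which passed in 5 of 9 fits without 1 array and reached an adjusted p of up to 0.0785 in the other 4. Ccl5 was called at -0.28 (adjusted p = 0.0498) but passed in none of those 9 fits, nor with the arrays centred on their medians (adjusted p = 0.0648).

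Receptors for cytokines also moved in both directions. Of 31 measured receptor genes, 4 were higher in SRG3 cKO (Il23r, Il1r1, Il18r1 and Il12rb1) and 5 higher in RORγt KO (Il12rb2, Il7r, Il10ra, Il21r and Il17ra), with a median of -0.07. The shares over all genes in these directions were 0.595% and 0.681%. The members higher in SRG3 cKO bind IL-23, IL-1 and IL-18, and Il12rb1 encodes the chain shared by the IL-12 and IL-23 receptors. Il18r1 differed by 0.77 ± 0.06 (SE, adjusted p = 0.000508) and Il12rb1, named here for its role beside Il23r and Il12rb2, by 0.32 (adjusted p = 0.0208).

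Il12rb2 encodes the subunit that confers the response to IL-12 and is a mark of Th1 potential. It measured 10.45, 10.10 and 10.21 in SRG3 cKO, 11.49, 11.59 and 11.32 in RORγt KO and 10.19, 9.98 and 9.86 in WT. The RORγt KO arrays alone were high, and the SRG3 cKO arrays met the WT range. The difference was -1.22 ± 0.11 (SE, adjusted p = 0.000772), or 2.32-fold. Il12rb2 and Il23r are neighbours in the RefSeq gene order on chromosome 6 and differed in opposite directions, at -1.22 and 1.75.

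Il7r, the receptor for the survival cytokine IL-7, measured 9.28, 9.26 and 9.24 in SRG3 cKO, 10.35, 10.42 and 10.16 in RORγt KO and 9.54, 9.20 and 9.34 in WT. Its pattern resembled that of Il12rb2, with RORγt KO alone high. The difference was -1.05 ± 0.09 (SE, adjusted p = 0.000679), or 2.07-fold. Il21r differed by -0.47 (adjusted p = 0.0027) and Il10ra by -0.67 (adjusted p = 0.0419). The Il10ra call passed in 2 of the 9 fits without 1 array and reached an adjusted p of up to 0.159 in the others. Il6ra (-0.21) and Il6st (-0.06), which form the IL-6 receptor, and Il2ra (-0.15) did not pass.

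A minority of Th1 and cytotoxic genes was higher in RORγt KO, with the largest differences in Il12rb2 and Klrd1. Of 23 measured members, 7 were higher in RORγt KO, 0 were higher in SRG3 cKO and 16 did not pass, and the median difference was -0.28 beside -0.00 for all genes. The 7 were Il12rb2, Klrd1, Gzmb, Nkg7, Serpinb9, Klrc1 and Cxcr3. Without 1 array the count was between 4 and 7. Klrd1 encodes CD94, the partner of NKG2 receptors on NK and cytotoxic T cells. It measured 5.81, 5.61 and 5.86 in SRG3 cKO, 7.16, 6.92 and 6.53 in RORγt KO and 5.99, 5.84 and 6.04 in WT. The SRG3 cKO and WT arrays were all below the lower quartile of all values. The difference was -1.11 ± 0.14 (SE, adjusted p = 0.00505), or 2.16-fold.

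The other cytotoxic genes showed smaller differences. Nkg7, a granule membrane protein gene, differed by -0.66 (adjusted p = 0.0023), and Serpinb9, which encodes an inhibitor of granzyme B, by -0.60 (adjusted p = 0.0035). Gzmb, which encodes granzyme B itself, differed by -0.96 ± 0.15 (SE, adjusted p = 0.0148). The Gzmb call was lost without SRG3 cKO array 1 (adjusted p = 0.0702) or 3 (0.0697) and in the fit of 6 arrays alone (0.0729). Klrc1 (-0.48, adjusted p = 0.0133) passed in 5 of 9 such fits and Cxcr3 (-0.30, adjusted p = 0.0395) in 1 of 9, with adjusted p of up to 0.0641 and 0.12. The master regulator of Th1 cells, Tbx21, differed by -0.28 (95% interval -0.46 to -0.09) and did not pass after adjustment, and neither did Stat4 (-0.02), Eomes (0.03) or Ifng (0.02).

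Markers of other cells that the sort could have let through were read beside these genes. Of 11 measured markers of cytotoxic CD8, natural killer and γδ lymphocytes, 0 were called in either direction, beside 1.28% of all genes. Their mean level was 6.97 to 6.98 in the SRG3 cKO arrays, 7.01 to 7.04 in RORγt KO and 6.99 to 7.02 in WT. The defining genes Cd8a (-0.08), Cd8b1 (0.07), Ncr1 (-0.08) and Klrb1c (-0.03) did not pass. Of 16 myeloid markers 0 were called, with mean levels of 6.82 to 6.85 against 6.86 to 6.89, and of 11 B cell and MHC class II markers 0 were called, with 7.92 to 7.97 against 8.01 to 8.13. At the share of all genes, such short lists hold few or no calls. Below the median of all values lay 6 markers of the first list, 11 of the myeloid list and 1 of the B cell list. Without 1 array, at most 1 marker of the first list and 1 of the B cell list was called, in RORγt KO. These 3 lists were slightly higher in every RORγt KO array than in every SRG3 cKO array. The part of other cells in the results was not tested. In a culture, a larger share of cells with a gene and a higher level per cell cannot be told apart.

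**Figure D3:**
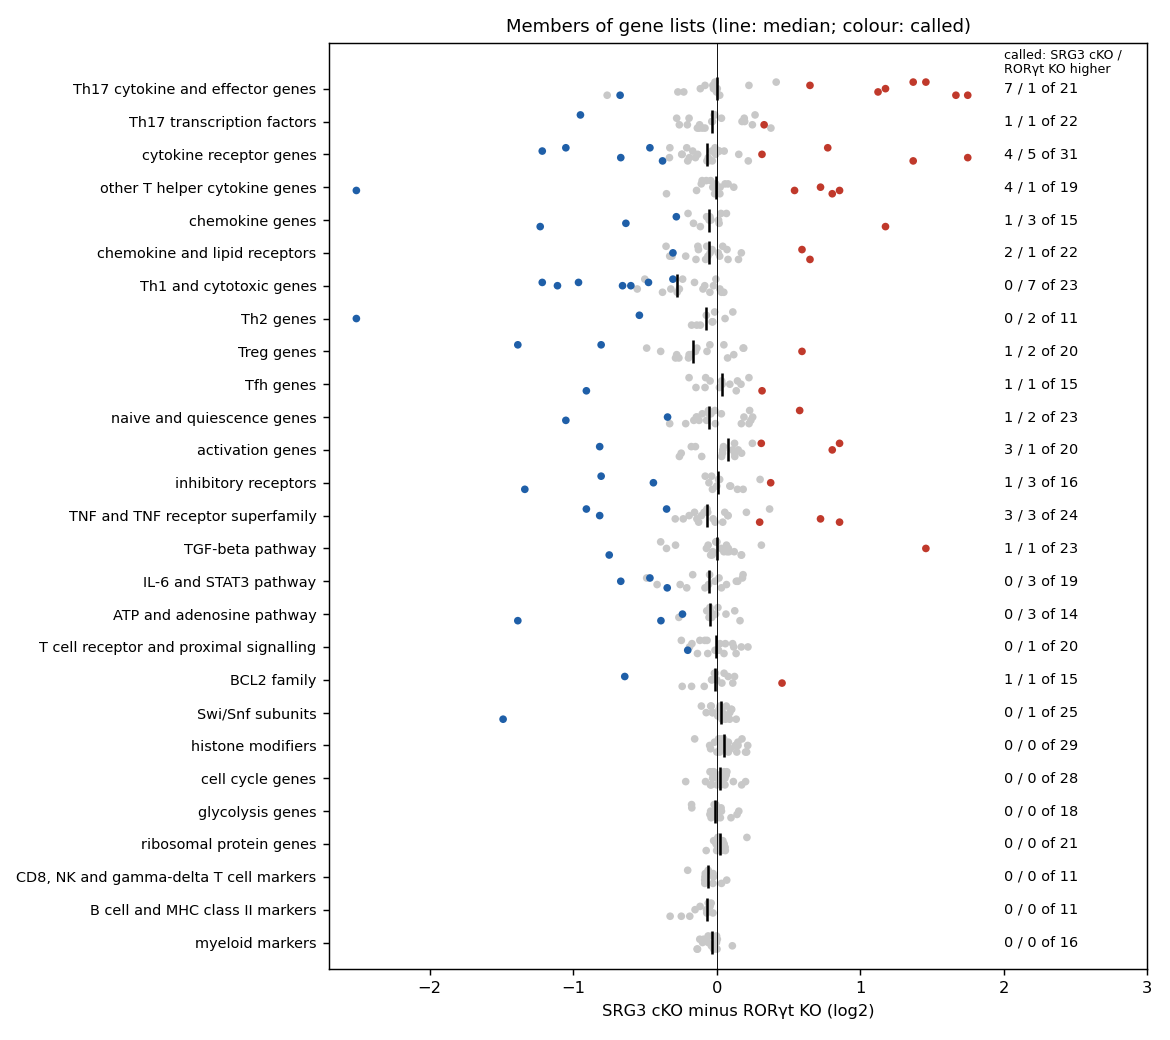
Each row is a list of genes and each point a measured member, placed by its log2 difference of SRG3 cKO minus RORγt KO. Red and blue points are called members, grey points are not called and the black line is the list median. Called Th17 effector genes lie mostly on the right, all 7 called Th1 and cytotoxic genes lie on the left with a median of -0.28, and the cell cycle, glycolysis and ribosomal protein lists have no called member.

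Genes tied to regulatory T cells and adenosine signalling included the large difference of Nt5e. Of 20 measured Treg genes, 2 were higher in RORγt KO (Nt5e and Tigit) and 1 higher in SRG3 cKO (Gpr83), beside 1.28% of all genes called, and the median was -0.16. Nt5e encodes CD73, the surface enzyme that turns AMP into adenosine. It measured 6.45, 6.44 and 6.66 in SRG3 cKO, 8.13, 7.80 and 7.78 in RORγt KO and 6.59, 6.39 and 7.24 in WT. The RORγt KO arrays stood above all others, and WT array 3 was the highest of the rest. The difference was -1.39 ± 0.19 (SE, adjusted p = 0.00782), or 2.61-fold.

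Of 14 genes of ATP and adenosine handling, 3 were higher in RORγt KO, namely Nt5e, the ATP receptor P2rx7 (-0.39, adjusted p = 0.00782) and Dpp4 (-0.24, adjusted p = 0.0208), again beside 1.28% of all genes, with a median of -0.05. Dpp4 encodes CD26. Its call passed in 3 of 9 fits without 1 array and reached an adjusted p of up to 0.0843. Entpd1 (CD39), which makes the AMP that CD73 uses, differed by -0.26 and did not pass, nor did Foxp3 (-0.20, 95% interval -0.38 to -0.02). Gpr83, a receptor found on Treg cells, differed by 0.59 (adjusted p = 0.0137). That call was lost without RORγt KO array 2 or 3 (adjusted p of up to 0.0707) and with 6 arrays alone (0.0598).

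Inhibitory and costimulatory surface genes were mixed. Of 16 inhibitory receptor genes, 3 were higher in RORγt KO (Lilrb4a, Tigit and Lag3) and 1 higher in SRG3 cKO (Cd200r1). The Cd200r1 call (0.38, adjusted p = 0.0377) passed in 1 of 9 fits without 1 array, with an adjusted p of up to 0.148, and the Lag3 call (-0.44, adjusted p = 0.0182) in 4 of 9, up to 0.0851. Lilrb4a encodes an immunoglobulin-like receptor with inhibitory motifs. It measured 8.22, 8.49 and 8.13 in SRG3 cKO, 9.70, 9.72 and 9.44 in RORγt KO and 9.47, 9.10 and 8.89 in WT. SRG3 cKO lay below WT, and RORγt KO overlapped the upper end of WT. The difference was -1.34 ± 0.15 (SE, adjusted p = 0.00249), or 2.53-fold. The probes of Lilrb4a and of the NKG2 gene Klrc1 may also bind transcripts of close paralogs, which was not tested. Tigit, which competes with CD226 for the same ligands, differed by -0.81 ± 0.10 (SE, adjusted p = 0.00482).

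Cd226, the activating partner of Tigit, was higher in SRG3 cKO. It measured 8.42, 8.60 and 8.25 there, 6.93, 7.73 and 7.31 in RORγt KO and 8.04, 8.20 and 8.04 in WT. The groups did not overlap, although RORγt KO array 2 came nearest. The difference was 1.10 ± 0.17 (SE, adjusted p = 0.0148), or 2.14-fold. The Cd226 call was lost without SRG3 cKO array 1 (adjusted p = 0.0647) or 2 (0.0738), without RORγt KO array 3 (0.0569) and in the fit of 6 arrays alone (0.0833). Cd226 and Tigit thus had opposite signs, at 1.10 and -0.81.

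In the TNF and TNF receptor superfamily, 3 of 24 measured genes were higher in SRG3 cKO (Tnf, Lta and Tnfrsf10b) and 3 higher in RORγt KO (Tnfsf8, Tnfsf11 and Tnfrsf26). Tnfsf8, the CD30 ligand gene, differed by -0.91 ± 0.08 (SE, adjusted p = 0.000679). Tnfsf11 encodes RANKL, through which T cells act on bone and on lymphoid stroma, and differed by -0.82 ± 0.07 (SE, adjusted p = 0.000607). Against WT, Tnfsf11 stood at -0.80 in SRG3 cKO (adjusted p = 0.00192) and 0.02 in RORγt KO (adjusted p = 0.939), whereas Tnfsf8 stood at -0.35 (adjusted p = 0.112) and 0.55 (adjusted p = 0.0153). Tnfrsf10b (0.30, adjusted p = 0.0318) and Tnfrsf26 (-0.35, adjusted p = 0.029) each passed in 2 of the 9 fits without 1 array, with adjusted p of up to 0.112 and 0.119. Fasl (-0.15), Cd40lg (0.04) and Tnfrsf4 (-0.07) did not pass.

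Among the transcription factors of the Th17 network, Ahr stood out as the largest difference. Of 22 measured, Batf was higher in SRG3 cKO (0.33, adjusted p = 0.0427), Ahr was higher in RORγt KO and 20 did not pass, beside 1.28% of all genes called. Members went both ways, with a median of -0.03 and a median size of 0.18 beside 0.05 for all genes. Ahr, the aryl hydrocarbon receptor that promotes Il22 in Th17 cells, differed by -0.95 ± 0.08 (SE, adjusted p = 0.000568). Its differences from WT were -0.29 in SRG3 cKO (adjusted p = 0.189) and 0.66 in RORγt KO (adjusted p = 0.00603). The Batf call passed in 1 of 9 fits without 1 array, with an adjusted p of up to 0.152, and missed after quantile normalization (0.0505). Rora (-0.13), Irf4 (0.19), Maf (-0.19), Stat3 (-0.08) and Runx1 (0.38, adjusted p = 0.0577) did not pass. Neither did Il22 (0.00), whose level lay far below the lower quartile of all values in both knockouts.

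In the pathways of the polarizing cytokines, 5 calls were made, beside 1.28% of all genes. In the TGF-β pathway 1 of 23 measured genes was higher in SRG3 cKO (Furin) and 1 in RORγt KO. The latter, Ldlrad4, encodes an inhibitor of SMAD phosphorylation and differed by -0.75 ± 0.07 (SE, adjusted p = 0.00121). The ligand genes Tgfb1 (-0.04) and Tgfb3 (-0.35), the receptor genes Tgfbr1 (0.31) and Tgfbr2 (0.00) and the inhibitor gene Smad7 (-0.00) did not pass. In the IL-6 and STAT3 pathway 3 of 19 were higher in RORγt KO, namely Il10ra, Il21r and the kinase gene Pim1 (-0.34, adjusted p = 0.0445, up to 0.163 without 1 array and passing in 1 of 9). The median size was 0.07 in the TGF-β list and 0.17 in the IL-6 list, beside 0.05 for all genes. Socs3, whose product damps IL-6 signalling, differed by -0.42 and did not pass (adjusted p = 0.0806).

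Genes of T cell state moved singly. Of 23 naive and quiescence genes, Id3 was higher in SRG3 cKO (0.58, adjusted p = 0.00701) and Il7r and Slfn1 (-0.34, adjusted p = 0.0149) were higher in RORγt KO. Id3 encodes an inhibitor of E proteins. Of 20 activation genes, Il2, Tnf and Egr2 (0.31, adjusted p = 0.0267) were higher in SRG3 cKO and Tnfsf11 higher in RORγt KO, while Cd69 (0.17), Nr4a1 (0.13) and Myc (0.12) did not pass. In the BCL2 family the survival gene Bcl2l1 was higher in SRG3 cKO (0.46 ± 0.04, adjusted p = 0.00113) and the death gene Bcl2l11, which encodes BIM, higher in RORγt KO (-0.64, adjusted p = 0.0133), the other 13 not passing. The Bcl2l11 call was lost without RORγt KO array 2 or 3, at an adjusted p of up to 0.0699. Slfn1 passed in 5 and Egr2 in 4 of the 9 fits without 1 array, with adjusted p of up to 0.0723 and 0.113.

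Smaller lists gave 1 or 2 calls each, beside 1.28% of all genes called. Of 11 Th2 genes, Il3 and Penk (-0.54, adjusted p = 0.00568), the enkephalin precursor gene, were higher in RORγt KO, while Gata3 (-0.11) did not pass. Of 15 Tfh genes, Sh2d1a (0.32, adjusted p = 0.0123), which encodes the adaptor SAP, was higher in SRG3 cKO and Tnfsf8 higher in RORγt KO. The remaining calls were Tnfaip3, the A20 gene, of 15 NF-kB genes (0.43, adjusted p = 0.042), Arntl of 17 clock genes (0.35, adjusted p = 0.0395) and Sdhd of 23 respiratory chain genes (0.24, adjusted p = 0.0179), all higher in SRG3 cKO. Vav1 of 20 T cell receptor signalling genes (-0.20, adjusted p = 0.044), Perp of 22 p53 targets and CDK inhibitors (-0.61, adjusted p = 0.0254) and Ly6c2 of 19 adhesion genes (-0.61, adjusted p = 0.0149) were higher in RORγt KO. Penk passed in all 9 fits without 1 array, Sh2d1a and Perp in 6, Sdhd in 5, Ly6c2 in 4, Tnfaip3 and Arntl in 2 and Vav1 in 1. Vav1 also missed with the arrays centred on their medians (adjusted p = 0.0659).

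Several large differences fell outside these programs. Nedd4, a ubiquitin ligase that promotes T cell activation, measured 10.00, 9.81 and 9.85 in SRG3 cKO, 8.87, 8.85 and 8.73 in RORγt KO and 8.68, 8.47 and 8.81 in WT. Here SRG3 cKO alone was high, and the difference was 1.07 ± 0.09 (SE, adjusted p = 0.000568), or 2.1-fold. Tspan6, a tetraspanin gene, differed by 0.87 ± 0.05 (SE, adjusted p = 0.000118), Itga3, an integrin subunit gene, by 0.73 (adjusted p = 0.000508) and Slc9a9, an endosomal sodium and proton exchanger gene, by 0.70 (adjusted p = 0.00113). Tspan6 and Itga3 stood 0.15 (adjusted p = 0.266) and -0.17 (adjusted p = 0.294) from WT in SRG3 cKO and -0.72 and -0.90 in RORγt KO (adjusted p = 0.000143 for both). Calcrl differed by 0.75 (adjusted p = 0.00722) and encodes the receptor chain for calcitonin gene-related peptide. The pseudogene Pisd-ps3 differed by 0.76 (adjusted p = 0.0063). Sdcbp2 (0.73, adjusted p = 0.0215), which encodes syntenin-2, passed in 4 of the 9 fits without 1 array, and Dpy19l3 (0.68, adjusted p = 0.0147), a mannosyltransferase gene, in 5.

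On the RORγt KO side, the tubulin gene Tubb6 differed by -1.04 ± 0.10 (SE, adjusted p = 0.00113) and the gap junction gene Gja1 by -0.88 (adjusted p = 0.00291). Farp1 differed by -0.84 (adjusted p = 0.000679), the matricellular gene Ccn1 by -0.84 (adjusted p = 0.0027) and Neb, the gene of a muscle thin filament protein, by -0.83 (adjusted p = 0.00113). For Farp1 and Ccn1 the RORγt KO cultures stood at -0.01 and -0.20 from WT (adjusted p = 0.98 and 0.42) and SRG3 cKO at -0.85 and -1.04 (adjusted p = 0.00192 and 0.00259). For Neb the order turned, with SRG3 cKO at 0.10 from WT (adjusted p = 0.688) and RORγt KO at 0.93 (adjusted p = 0.000788). Serpinb5, the maspin gene, differed by -0.83 (adjusted p = 0.00869), a call lost with 6 arrays alone (0.0651). Its means of 5.25 in SRG3 cKO and 6.09 in RORγt KO both lay below the lower quartile of 6.12. Mctp2 (-0.91, adjusted p = 0.0209) passed in 5 and Treml2 (-0.83, adjusted p = 0.0208) in 6 of the 9 fits without 1 array.

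Mir29a was a microRNA gene called higher in SRG3 cKO. MicroRNAs are short RNAs that lower target messages by pairing through their seed, bases 2 to 8. Mir29a measured 7.09, 7.55 and 7.17 in SRG3 cKO, 5.83, 6.42 and 6.33 in RORγt KO and 6.40, 6.27 and 6.24 in WT. SRG3 cKO alone was high, with a difference of 1.08 ± 0.16 (SE, adjusted p = 0.0109), or 2.11-fold, which missed the threshold with 6 arrays alone (adjusted p = 0.0717). The related Mir29b-1 differed by 0.38 (95% interval 0.04 to 0.72) and did not pass (adjusted p = 0.395), at mean levels of 4.57 and 4.19. A probe set of this kind covers the gene and does not tell mature arms or precursor apart. Both genes give a mature RNA with the seed AGCACCA, and their sequences from RefSeq (GRCm38.p6) are printed with the seed in capitals to show what they share. The RefSeq table matched 426 of the microRNA genes tested, among which Mir29a was the 1 called. Mir1948, a microRNA gene without an entry there, was called higher in RORγt KO. It differed by -0.92 (adjusted p = 0.0145), a call lost without SRG3 cKO array 1 or 3 or RORγt KO array 1, at an adjusted p of up to 0.0647. Its mean in SRG3 cKO was 6.06, below the lower quartile of 6.12. Its direct neighbour in the gene order, Ttc39c, was also called higher in RORγt KO, at -0.81 (adjusted p = 0.00722). Whether these signals are separate was not tested.
miR-29a-3p: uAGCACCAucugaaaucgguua
miR-29b-3p: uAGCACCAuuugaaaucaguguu

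Adjacent genes were then read along the chromosomes, a view chosen after the values were seen. Of 21994 genes placed in the RefSeq order, 281 were called. Among these, 17 pairs were direct neighbours and 14 of them had the same sign. How many such pairs, or shared signs, a random order would give was not computed, so the counts are a description only. Same-sign pairs included Il17a with Il17f, Tnf with Lta, Ccl3 with Ccl4 and Klrc2 (-0.60) with Klrc1 (-0.48). The guanylate-binding protein genes Gbp7 (-0.54) and Gbp3 (-0.49) formed another pair, as did Parp14 (-0.33) and Parp9 (-0.39). Il12rb2 with Il23r, Perp (-0.61) with Tnfaip3 (0.43) and the T cell receptor segments Trav7-4 (0.68) with Trav12-2 (-0.79) had opposite signs. Probes of neighbouring paralogs can bind each other's transcripts, which was not tested.

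Broad programs of growth and metabolism had no or few called members. Of 28 cell cycle genes 0 were called in either direction, beside 1.28% of all genes, with a median of 0.03 and Mki67 at -0.04. Likewise 0 of 18 glycolysis genes, 0 of 20 sterol and fatty acid synthesis genes, 0 of 24 amino acid and ATF4 genes and 0 of 21 ribosomal protein genes were called. At the share of all genes, lists of this length hold few or no calls, so these counts say little about the programs. Smarcc1 was the called member among 25 Swi/Snf subunit genes, and the other 24, such as the ATPase gene Smarca4 (0.09) and the paralog Smarcc2 (0.07), did not pass. Of 29 histone modifier genes 0 were called, with Ezh2 at 0.21. In the type I interferon response list, 2 of 20 genes, Gbp3 and Igtp (-0.45), were higher in RORγt KO, while Ifit1 (-0.08) and Isg15 (-0.06) did not pass. Gbp3 passed in 4 and Igtp in 3 of the 9 fits without 1 array, with adjusted p of up to 0.0947 and 0.13, and the list's count fell to 0 in some of them. Over the limma fits without 1 array and under the other settings, the cell cycle list gave 0 or 1 called gene, and the histone modifier list gave 0 throughout.

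**Figure D4:**
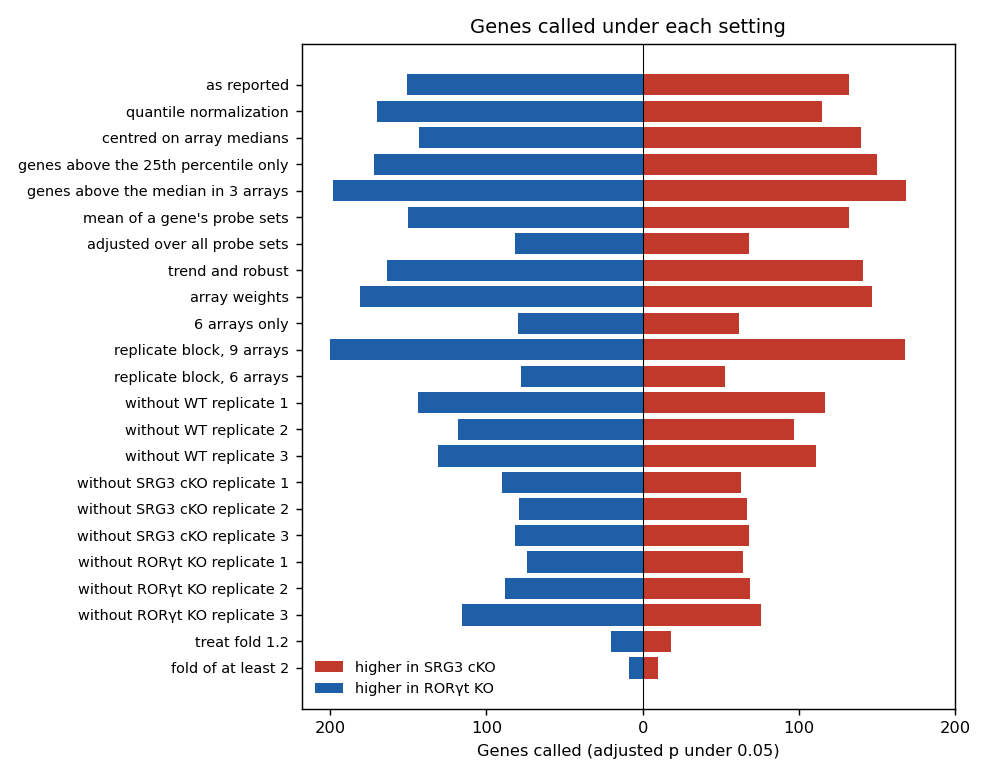
Bars give the number of genes called higher in SRG3 cKO (red, to the right) and higher in RORγt KO (blue, to the left) under each setting of the analysis. The reported fit gives 132 and 151, and the fit of the 6 arrays alone gives 62 and 80. More genes are called on the RORγt KO side in every setting shown except the 2-fold threshold, with 10 against 9.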

How the data were processed

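Groups and culture conditions came from the labels. The authors deposited log2 probe set intensities for 9 arrays with 41345 probe sets in the series' value table; the background correction, probe summary and normalization between arrays are not given in the sources used here. Array medians were 7.12 to 7.14, and 0 sample columns were left unused. Of the probe sets 23521 had 1 gene symbol, 1814 several and 16010 none; symbols were updated by gene ID for 23328. For 1082 genes with several probe sets, the brightest was kept.

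The values were fitted with limma 3.58.1 (R 4.3.3; lmFit and eBayes) over all 9 arrays without covariates, and SRG3 cKO minus RORγt KO was tested with Benjamini-Hochberg adjustment over 22180 genes at 0.05. Tested on simulated data with 200 of 22180 genes changed, the fit recovered 86.6%, 95.5% and 100% of changes of 0.5, 1 and 2 on the log2 scale. The simulated noise was independent and drawn from the fit's own variance model, so these shares do not show the recovery in the real arrays. Changes below 0.5 were not simulated, while the median called size was 0.40. The number of arrays limits the precision.

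Genes named are the 20 largest called differences in each direction without predicted-gene symbols, Smarcc1, Il3, Nt5e, Ccl3, Furin and Il1r1, and for each of 39 lists up to 6 called members; of the first 4 members of a list that did not pass, only some are printed. The genes and lists were chosen with earlier results of these data known. Lgals3, Il17ra, Il12rb1, Klrc2, Ttc39c, Gbp7, Parp14, Parp9, the Trav segments and Mir29b-1 are named outside the rule, after their values were seen. So are further members that did not pass. The labels state no pairing by replicate number, and the closing part on processing gives the correlations between same-numbered arrays. Alternatives covered normalization, centring, dim genes, probe sets, the variance model, array weights, arrays fitted, blocks, each array left out and fold thresholds.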

Additional observations from a re-analysis of the deposited data

Results flagged for a closer look

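Il3 moved in opposite directions from WT in the 2 knockouts. SRG3 cKO minus WT was -1.49 (limma, adjusted p = 0.0127), with all 3 SRG3 cKO arrays below all 3 WT arrays, and RORγt KO minus WT was 1.02 (adjusted p = 0.0354), with all 3 RORγt KO arrays above. The difference between the knockouts, tested in the same fit, was -2.51 (adjusted p = 0.000352), and the gene passed whichever of the 9 arrays was left out. Both comparisons with WT share the WT arrays.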

How the results depend on the processing

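No named called gene changed direction under any setting tried, and Smarcc1 was called in every one that tests genes. Counts are given as total, higher in SRG3 cKO and higher in RORγt KO. Adjusting over all probe sets gave 150, 68 and 82, where more features were tested. The fit of 6 arrays gave 142, 62 and 80, with fewer arrays for the spread. A test against a 1.2-fold change (limma treat) gave 38, 18 and 20, and a 2-fold minimum 19, 10 and 9. Leaving out 1 array gave 138 to 261, 63 to 117 and 74 to 144, and the count of genes without overlap ran from 4992 to 5701, where fewer arrays must be separated. Apart from the replicate block in 6 arrays, the other settings moved no count by over 1.5 times. Quantile normalization gave 115 higher in SRG3 cKO and 170 higher in RORγt KO, and median centring 140 and 143. The labels state no pairing by replicate number. Deviations of same-numbered knockout arrays correlated at 0.223, -0.00544 and 0.137, and the value for the arrays numbered 1 was the highest of any pair. SRG3 cKO arrays 1 and 3 correlated best with the RORγt KO array of the same number, and array 2 with RORγt KO array 3 (0.148). Whether same-numbered arrays shared a batch was not tested. A replicate block in 9 arrays gave 368, 168 and 200, and in 6 arrays 131, 53 and 78. Among the 77 called genes that the naming rule takes, 43 passed in all 9 fits without 1 array. Of the called genes, 34 had a mean level below the median of all values; signal over background was not analysed here.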
